A study of Mus musculus with 4 samples.

Results

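Skeletal muscle tissue engineered in 3D culture was compared immediately after an acute bout of electrical stimulation with tissue labelled as having had no acute stimulation. The comparison rests on 2 of the 4 single-colour arrays of the study. One held RNA of mouse (Mus musculus) 3D engineered muscle at 0 min after 30 min of acute EPS. The other held RNA of the same kind of tissue at 0 min with no acute EPS. With EPS, without EPS and unstimulated refer below to this acute EPS only, and the sample titles do not say whether any tissue was stimulated earlier. EPS is spelled electrical plus stimulation in the labels and is read here as electrical pulse stimulation, a current that makes cultured muscle contract. The other 2 arrays, at 5 h with and without EPS, entered only to mark genes for which the unstimulated 0 min array stood apart. The labels give skeletal muscle as the tissue of all groups. They name no cell source, strain or number of tissues behind an array, and 1 array per group leaves no spread between tissues. No test between the groups was therefore possible, and every difference below describes these 2 arrays.

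Muscle that is made to contract releases calcium into the cytosol and undergoes stretch and metabolic load. These signals switch on immediate early genes, which need no new protein synthesis for their transcription and encode mostly transcription factors and feedback inhibitors. Protein damage by heat, force or metabolic stress activates heat shock factor, which drives the genes of chaperones, the proteins that refold others. Both programs can raise a transcript within minutes, while abundant structural transcripts of muscle turn over slowly.

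The level of a gene is the log2 of the probe's processed signal relative to the 75th percentile of its array, so a level of 0 lies at that percentile and 1 unit is a factor of 2. Differences are EPS minus no EPS. A gene was measured where its brightest probe was well above background on both arrays, which held for 18585 of 31882 gene names. Only a gene well above background on all 4 arrays could be marked. It was marked where its level on the unstimulated 0 min array lay outside the range of the other 3 arrays by more than the width of that range. A gene dim on any array was left unmarked, even where the control stood apart. For a marked gene the other 3 arrays, the unstimulated one at 5 h included, lay closer to each other than to the control at 0 min. Among 18100 genes measured on all 4 arrays, 1793 were marked, which is 9.91%.

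The 75th percentile of the signal was 1362.5 without EPS and 1093 with EPS. The difference over all measured genes had a median of 0.02, and its middle 95% ran from -0.67 to 0.52. It moved with the level: the median was -0.09 in the dimmest 10% of genes and 0.12 in the brightest 10%. Small positive medians of lists of bright genes are therefore set beside this trend. Error between spots came from 274 probes printed 10 times and measured on both arrays; the standard deviation of the difference between spots was 0.06 at the median probe, and 95% of probes lay at or below 0.27. For the dimmest 91 probes that bound was 0.35 and for the brightest 92 it was 0.08. This error covers spots of 1 labelled RNA sample and says nothing of variation between tissues. Medians over 64 blocks of the array surface ran from -0.02 to 0.08.

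The labelling protocol names mouse leukocytes as the RNA source, against the muscle of all other labels, so marker genes were examined first. All 10 muscle identity markers were measured, with a median level of 5.71, and skeletal actin Acta1 stood at 7.13 without EPS and 7.37 with EPS. Their summed signal was 577 times the 75th percentile without EPS and 647 times with EPS. Of 16 leukocyte markers 9 were measured, with summed signals of 10.3 and 9.54 times that percentile. The measured ones included Cd4, at -0.38 without EPS and -0.63 with EPS, and Cd3e, at -1.91 and -2.08. Ly6g and S100a8 were measured at dimmer levels, -3.91 and -3.81 without EPS. Ptprc, the common leukocyte antigen CD45, was not well above background on both arrays, nor were Adgre1, Cd3d, Cd8a, Cd79a and Lyz2. Fibroblast markers were present, 11 of 12 measured with summed signals of 339 and 370. Cd68, a macrophage marker in the leukocyte list, was 2.52-fold lower with EPS at a dim level, was marked, and differed by -0.58 after normexp correction. Of 12 neuron and Schwann cell markers 7 were measured, 6 of them below 0, with a median of -0.21 (0 after normexp correction) and summed signals of 7.16 and 5.79. Only 3 of 10 endothelial and 3 of 9 adipocyte markers were measured. The part of these other cells in the differences below was not tested.

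With EPS, 104 genes (0.56% of those measured) were at least 2-fold higher and 147 (0.791%) at least 2-fold lower. A count of 0 at 2-fold in a short list below is therefore close to these shares. The genes higher with EPS included bright, well known activity genes, whereas the genes lower with EPS were mostly dim transcripts. Of the 104 higher genes 61 had a mean level below the lower quartile of all measured genes, -3.03, as did 112 of the 147 lower genes. Above that quartile 43 genes were higher and 35 lower. Among the 1859 brightest genes 3 were higher and 0 lower. The mark fell on 18 of the 104 higher genes (17.3%) and on 60 of the 147 lower genes (40.8%). Only 86 of the higher and 121 of the lower genes were well above background on all 4 arrays and so could be marked. Leaving marked genes out, 86 were higher (0.463%) and 87 lower (0.468%). These remaining genes include those that could not be marked. After normexp background correction, an alternative to the scanner's own, 42 genes were higher and 29 lower, so that the higher genes made up 59.2% of the calls in place of 41.4%. A gene symbol, as opposed to a clone or accession name, was carried by 71.5% of the measured genes, 63.5% of the higher and 30.6% of the lower ones.

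**Figure D1:**
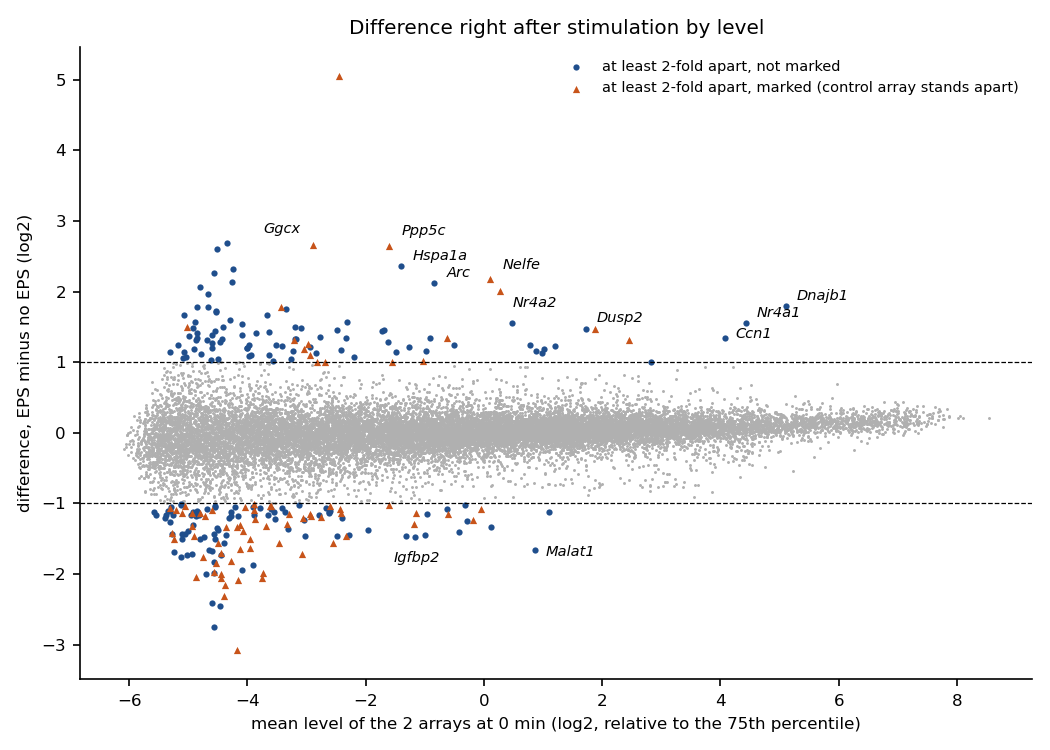
Each point is 1 of 18585 measured genes; the x axis is the mean level of the 2 arrays at 0 min and the y axis the difference, both on the log2 scale, with dashed lines at 2-fold. Coloured points are at least 2-fold apart, as triangles where marked: the spread is widest among dim genes, and Dnajb1, Nr4a1 and Ccn1 stand alone among the bright ones.

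Of the immediate early and activity genes some were higher with EPS and none was 2-fold lower. Together 6 lists held 94 such genes, 84 of them measured, of which 11 were at least 2-fold higher (13.1%, against 0.56% of all measured genes) and 0 lower. Of the 84, 66 lay above 0 (78.6%, against 54.5% of all measured genes), and the median difference was 0.30. These genes were chosen with earlier results known, so the counts describe them and are no independent evidence of a direction.

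The NR4A orphan nuclear receptors are transcription factors that act without a known natural ligand and are induced in exercised muscle. Their list median of 1.78 was the highest of these lists, but it rests on 2 measured genes of 3. The third was well above background on only 1 of the arrays at 0 min. Nr4a1 was at 3.65 without EPS and 5.21 with EPS, a 2.94-fold difference on a bright probe (chromosome 15, 101105071 to 101105130, build mm9). Nr4a2 was at -0.74 and 1.28, a 4.04-fold difference shared by its 2 probes (1.93 and 2.01). Nr4a2 was marked: it stood at 2.16 without EPS at 5 h, far above the control at 0 min.

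Of the Fos and Jun family, which pairs into the AP-1 transcription factor, 12 members were measured, 11 lay above 0 and the median was 0.46. Fos was at 0.16 without EPS and 1.40 with EPS, 2.37-fold higher. Its probe was printed 10 times, and the difference was 1.24 ± 0.03 (SD between 10 spots). Fosb, its close relative, was at -1.88 and -0.66, 2.33-fold higher. Both Fos genes thus exceeded 2-fold, while the Jun members were nearer to 0: Junb differed by 0.74, Jun by 0.21 and Jund by 0.12. Atf3, a stress-induced repressor of the same family, differed by 0.60.

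The list of Egr, Ier and serum response genes had 23 measured members, 19 above 0, a median of 0.52 and 4 at least 2-fold higher. Ccn1, a matricellular protein secreted by stretched cells, was at 3.40 without EPS and 4.74 with EPS, 2.53-fold higher. Its relative Ccn2 was at 4.18 and 4.86, a difference of 0.68. Both are textbook targets of the mechanosensitive factor YAP. Egr2, a zinc finger transcription factor, was at 2.33 and 3.33, only just 2-fold apart, and its difference was 0.95 after quantile normalization and 0.94 after normexp background correction. Ier5l, a little studied early gene, was 2.48-fold higher and marked. Zfp36, which speeds the decay of cytokine mRNAs, was 2.12-fold higher at dim signals of 59.9 and 101.8, and differed by 0.73 after normexp correction. Srf, the serum response factor that switches on many genes of this list, was at 1.35 and 2.06, a difference of 0.71, and the oncogene Myc was at 1.33 and 1.90. Egr1, the archetype of the class, was already at 4.58 without EPS and at 4.89 with it. Egr3, at the dim end, went the other way with -0.32.

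Calcium and cAMP activity genes were led by Arc, a gene of active neurons and muscle that was at -1.90 without EPS and 0.22 with EPS, 4.35-fold higher (chromosome 15, 74499592 to 74499651, mm9). The list as a whole was mixed: 13 of 20 measured members lay above 0, and the median was 0.20. The neuronal activity gene Npas4 differed by 0.95 at a dim level (0.44 after normexp correction), and Rgs2, a brake on G protein signals, by 0.75 and was marked. Ppargc1a, which encodes the coactivator PGC-1 alpha of mitochondrial biogenesis, was lower by a difference of -0.53. Rgs16, of the same family as Rgs2 and outside the list, was at -3.01 and -1.66, 2.55-fold higher. The 12 Kruppel-like factors ranged from -0.15 (Klf3) to 0.39 (Klf4), with 0 at 2-fold.

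Feedback inhibitors of MAP kinases, which limit the signal that induces Fos and Egr genes, were higher in part. Of 16 measured phosphatases and Sprouty genes 2 reached 2-fold, 12 lay above 0, and the median was 0.23. Dusp2 was at 0.99 without EPS and 2.46 with EPS, 2.79-fold higher, and Dusp1 at 0.31 and 1.47, 2.24-fold higher. Errfi1, an inhibitor of the EGF receptor, was at 3.74 and 4.67, a difference of 0.93.

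**Figure D2:**
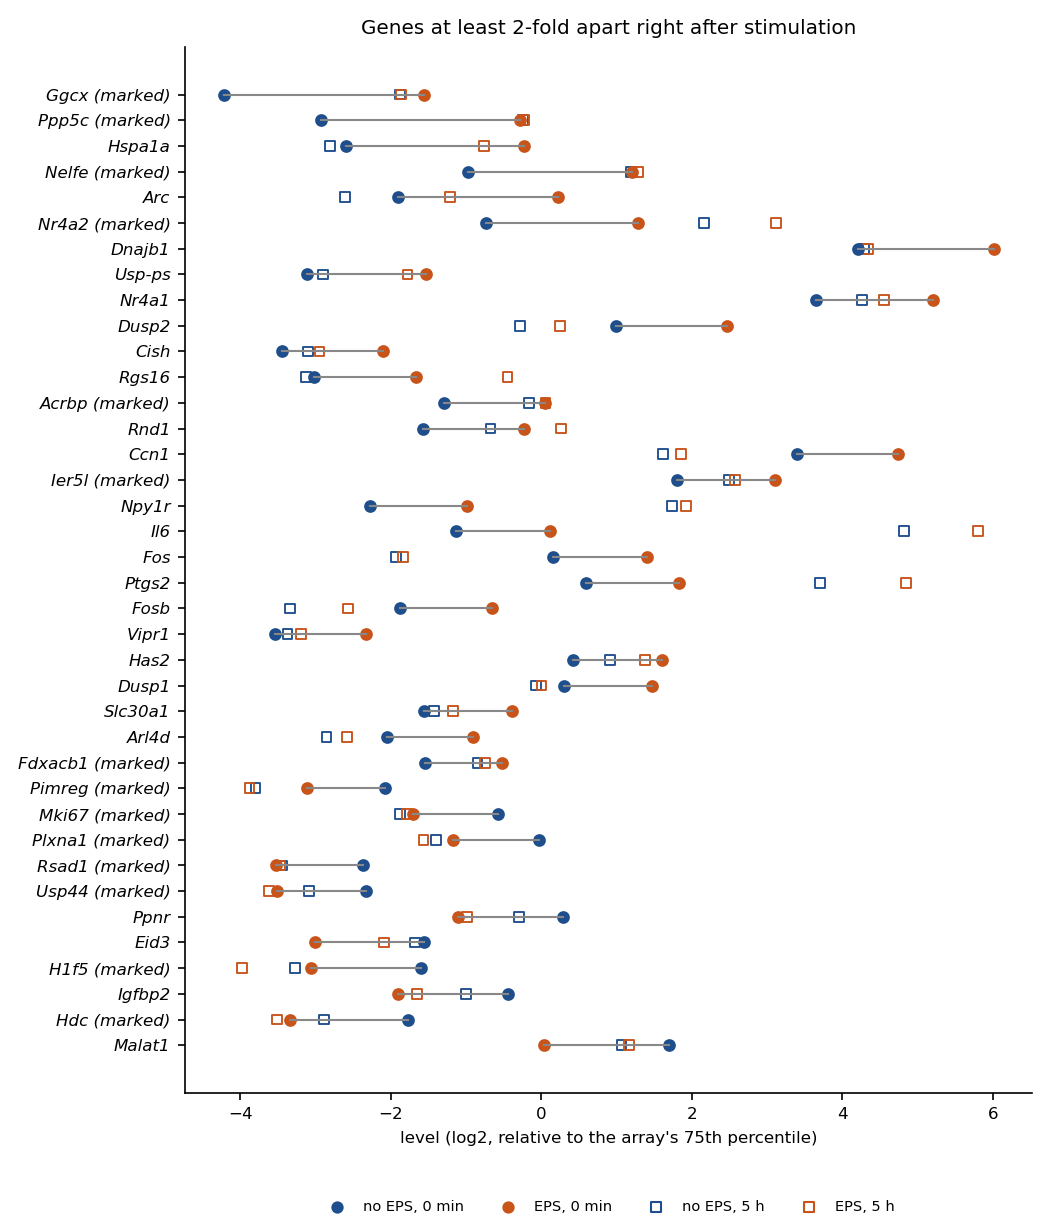
Levels (x axis, log2 relative to the 75th percentile of the array) of named genes at least 2-fold apart and at or above the lower quartile of level, 1 gene per line, ordered by difference. Filled circles joined by a line are the 2 arrays at 0 min, and open squares are the 5 h arrays that serve for the mark; Dnajb1 and Nr4a1 are bright on both arrays, while Ggcx, Ppp5c and Nelfe were low only in the control.

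Promoters of 3 of these genes are shown because each holds the binding motif of a factor known to drive early genes. They are the 200 bases before the RefSeq start (GRCm38.p6), written on the gene's own strand, at chr17:26508473-26508672 (minus strand) for Dusp1, chr10:67537669-67537868 (plus strand) for Egr2, 1 of its 5 listed starts, and chr17:46556163-46556362 (minus strand) for Srf. Capitals mark the cAMP response element TGACGTCA in Dusp1 and the CArG box, the site of serum response factor, in Egr2 and Srf.
Dusp1: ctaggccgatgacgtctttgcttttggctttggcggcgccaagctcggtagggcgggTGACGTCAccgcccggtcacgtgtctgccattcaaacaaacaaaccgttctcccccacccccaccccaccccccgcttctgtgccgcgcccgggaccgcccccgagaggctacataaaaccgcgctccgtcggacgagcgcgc
Egr2: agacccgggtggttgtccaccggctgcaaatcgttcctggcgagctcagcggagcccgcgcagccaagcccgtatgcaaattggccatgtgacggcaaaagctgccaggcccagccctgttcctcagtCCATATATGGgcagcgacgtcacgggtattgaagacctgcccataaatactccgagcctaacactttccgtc
Srf: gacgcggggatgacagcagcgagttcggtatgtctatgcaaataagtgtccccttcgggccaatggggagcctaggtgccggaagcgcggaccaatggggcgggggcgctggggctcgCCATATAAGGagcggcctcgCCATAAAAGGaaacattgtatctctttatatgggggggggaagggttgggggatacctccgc

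Motifs were searched on both strands from 250 bases before to 50 bases after each start. Promoters were in the table for 48 of the 104 higher genes. Counted by gene, since 4 of the 5 windows of Egr2 hold a CArG box and some overlap, the box was found for 1.81% of all 27025 genes with a promoter and 1.72% of the measured ones. It was found for 3 of 15 genes of the Egr, Ier and serum response list and for 2 of the 48 higher genes, 1 of them Egr2. The element TGACGTCA was found for 2.03% of all genes, 3.36% of the measured ones and 2 of the 48 higher genes (4.17%). A match of letters describes the sequence and shows no binding.

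Among named genes measured on both arrays and unmarked, the largest difference was that of a heat shock chaperone. Hspa1a, the inducible chaperone of the Hsp70 family, was at -2.59 without EPS and -0.23 with EPS, 5.14-fold higher (chromosome 17, 35107117 to 35107176, mm9). The annotation of this probe lists transcripts of both Hspa1a and its near-identical copy Hspa1b, so the signal may come from either. Dnajb1, the Hsp40 partner that hands clients to Hsp70, was at 4.21 and 6.01, 3.48-fold higher on one of the bright probes of the array (chromosome 8, 86135660 to 86135719, mm9). The 2 genes are partners in 1 chaperone cycle, and neither was marked.

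Beyond this pair no chaperone reached 2-fold. Of 28 measured cytosolic chaperones 24 lay above 0 and the median was 0.21, or 0.12 after the median difference of genes of like level was subtracted. Hsp90aa1, the inducible Hsp90, was at 4.24 and 4.75, a difference of 0.50. The Hsp70 cofactors Bag3 and Hsph1 differed by 0.47 and 0.46. These 3 were marked, and in total 6 of the 28 were. The constitutive Hsp70 gene Hspa8 differed by 0.23, Hsp90ab1 by 0.06, and the factor Hsf1 itself by -0.08. All 7 small heat shock genes lay above 0, up to 0.33 for Hspb1, with a median of 0.15, or 0.04 against genes of like level; Hspb1 and Hspb7 were marked. The 17 chaperones of the endoplasmic reticulum, which answer the unfolded protein response, ranged from -0.24 to 0.33; their median of 0.10 was 0.01 against genes of like level and lay just below 0 after quantile normalization.

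The Hspa1a promoter is shown for its paired heat shock units, inverted copies of GAA that heat shock factor recognises, as GAANNTTC or TTCNNGAA. It is at chr17:34972157-34972356 (minus strand, GRCm38.p6, RefSeq), with the match in capitals.
Hspa1a: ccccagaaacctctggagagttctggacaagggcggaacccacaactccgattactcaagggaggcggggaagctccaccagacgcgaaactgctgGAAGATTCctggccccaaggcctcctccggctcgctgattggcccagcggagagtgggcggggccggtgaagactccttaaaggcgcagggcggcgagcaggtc
Such pairs were in 15.1% of all promoters, in 11.8% of those of measured genes and in 13 of 35 promoters (37.1%) of the measured cytosolic chaperones. Among promoters of genes at least 2-fold higher they were in 8 of 62 (12.9%), near the share of measured genes. The full heat shock element of 3 such units was in 0.603% of all promoters, in 0.46% of those of measured genes and in 7 of the 35 (20%). It had 0 matches among the 62 promoters of genes at least 2-fold higher, the window of Hspa1a included.

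Cytokines and inflammatory genes differed at a few members. Interleukin-6, Il6, a cytokine that contracting muscle releases, was at -1.13 without EPS and 0.12 with EPS, 2.37-fold higher. It was unmarked, but the control at 0 min was the lowest array, and Il6 stood at 4.82 without EPS at 5 h. Cish, an inhibitor of cytokine receptors through STAT5, was at -3.45 and -2.10, 2.56-fold higher. Socs3, the inhibitor of interleukin-6 signalling, differed by 0.49, and the kinase Pim1 by -0.70 and was marked. The list of 17 genes had 12 above 0 and a median of 0.30.

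Ptgs2, the inducible cyclooxygenase of prostaglandin synthesis, was at 0.59 without EPS and 1.82 with EPS, 2.36-fold higher. For Ptgs2 too the control at 0 min was the lowest array, and the level without EPS at 5 h was 3.70. The difference at 0 min was 1.24 ± 0.02 (SD between 7 spots measured on both arrays). It was alone in its list: the other 12 genes of prostaglandin synthesis and reception ranged from -0.48 to 0.12. Of 12 chemokines 11 lay above 0 with 0 at 2-fold, led by the neutrophil attractant Cxcl1 (0.95). The monocyte attractant Ccl2 was at 1.01 and 1.80, a difference of 0.79 ± 0.08 (SD between 10 spots), and Ccl7 differed by 0.70. The NF-kB inhibitor Nfkbia, itself a target of NF-kB, differed by 0.71, while the list around it had a median of 0.07.

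**Figure D3:**
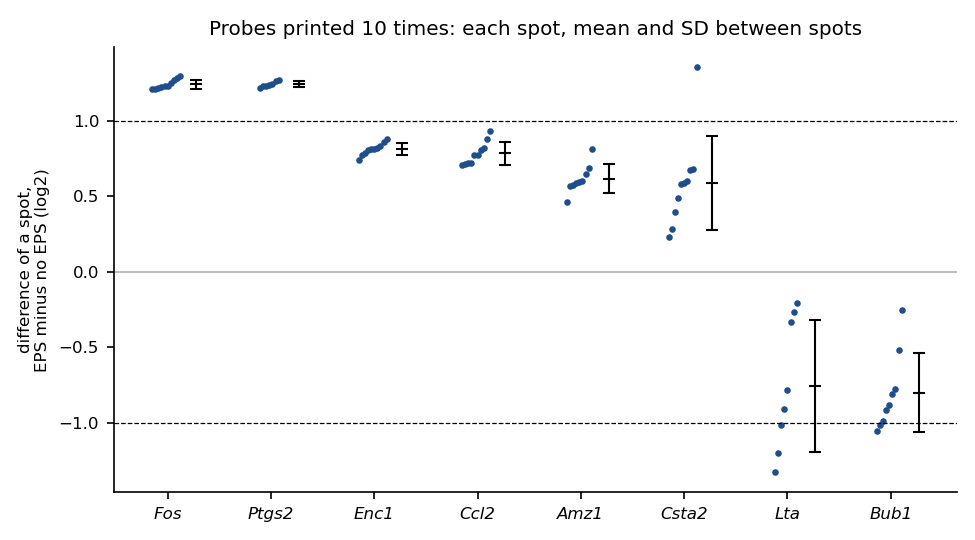
Difference of each spot (y axis, log2, EPS minus no EPS) for the 8 probes printed 10 times that were at least 1.5-fold apart; points are spots drawn in order of value, and bars give the mean and SD between spots. The spots of Fos and Ptgs2 all lie above 2-fold and close together, while those of the dim Csta2, Lta and Bub1 scatter widely.

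Repeated spots show how closely a difference between these 2 labelled samples was measured. Of the 274 probes printed 10 times 6 were at least 1.5-fold higher and 2 at least 1.5-fold lower (2.02% and 3.35% of all measured genes), and only Fos and Ptgs2 passed 2-fold. Enc1, an actin-binding protein, differed by 0.81 ± 0.04 (SD, 10 spots). Bub1, a mitotic checkpoint kinase at a dim level of -4.81, differed by -0.80 ± 0.26 (SD, 9 spots). Lta, which encodes lymphotoxin alpha, differed by -0.76 ± 0.44 (SD, 8 spots). Both are dim, and after normexp correction they differed by -0.09 and -0.08.

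Further unmarked genes above 2-fold served cell shape, matrix, metal handling and peptide signals. Has2, which makes the matrix polysaccharide hyaluronan, was at 0.42 without EPS and 1.60 with EPS, 2.28-fold higher. Slc30a1, the zinc exporter, was at -1.55 and -0.40, 2.23-fold higher. The metallothioneins Mt1 and Mt2, which also answer zinc, differed by 0.35 and 0.14. A probe without a gene symbol (chromosome 8, 96703844 to 96703903, mm9) lies near the Mt1 probe (96704165 to 96704224) and was named after its value was seen. It was at -0.295 without EPS and 1.259 with EPS, 2.94-fold higher and unmarked. Whether it reports Mt1 was not tested. Rnd1, a small GTPase that loosens actin fibres, was 2.54-fold higher, with its 2 probes at 0.72 and 1.34. Arl4d, another small GTPase, was 2.21-fold higher with both probes above 2-fold (1.12 and 1.14). The receptor genes Npy1r (neuropeptide Y) and Vipr1 (vasoactive intestinal peptide) were 2.45-fold and 2.32-fold higher. Npy1r was lowest on the control at 0 min and stood at 1.74 without EPS at 5 h. The other probe of Vipr1 gave 0.21. After normexp correction Vipr1 and Arl4d lay just under 2-fold, at 0.91 and 0.94. The pseudogene Usp-ps was 2.97-fold higher, and its probe shares sequence with those of Usp17la and LOC100044260, so the 3 may report 1 transcript.

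The study's title names hypoxia and cholecystokinin, so genes of both were examined. Of 23 measured targets of the hypoxia-inducible factor 0 reached 2-fold and 15 lay above 0. Their median was 0.21, or 0.15 against genes of like level. Angptl4, an inhibitor of lipoprotein lipase, differed by 0.64, the mitophagy receptor Bnip3 by 0.50 and the carbonic anhydrase Car9 by 0.45. In the other direction Ankrd37 was at 0.46 without EPS and -0.47 with EPS, a difference of -0.93, and the glycolytic regulator Pfkfb3 differed by -0.38. Vegfa, the vascular growth factor, differed by 0.24. Of 26 genes of glucose transport and glycolysis 23 lay above 0 with a median of 0.17, or 0.06 against genes of like level. The muscle glucose transporter Slc2a4 differed by 0.45 and the transporter Slc2a3 by -0.68. Cck itself was at 3.37 and 3.04, 1.26-fold lower, and its receptor genes Cckar and Cckbr were not well above background on both arrays.

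No structural or regulatory gene in the muscle lists reached 2-fold. Few of all measured genes did, 0.56% higher and 0.791% lower, so this count is near the share over all genes. The 33 sarcomere genes ranged from -0.35 for nebulin (Neb) to 0.38 for the slow myosin Myh7, with 0 at 2-fold. Their median was 0.14, and 0.03 against genes of like level. Of the 33 genes 4 lay below 0. The 23 excitation-contraction coupling genes, which link the nerve signal to calcium release, ranged from -0.14 to 0.46 (Sln, sarcolipin) around a median of -0.01, which was 0.03 after median centring. Of 13 myogenic factors 8 lay below 0 with a median of -0.12; Myog differed by 0.33 and the stem cell factor Pax7 by -0.68 at a dim level (-0.17 after normexp correction), and both were marked. The atrophy ligases Trim63 and Fbxo32 differed by 0.19 and -0.19. Foxo4, a transcription factor of the same list, differed by -0.91 at a dim level, by -0.30 after normexp correction and by -0.23 as the mean of its probes. Of the ATF4 stress genes 18 of 21 lay above 0 with a median of 0.20, or 0.12 against genes of like level. Among them were Gdf15 (0.63), Trib3 (0.58), Cebpb (0.56, marked) and Atf5 (0.53).

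**Figure D4:**
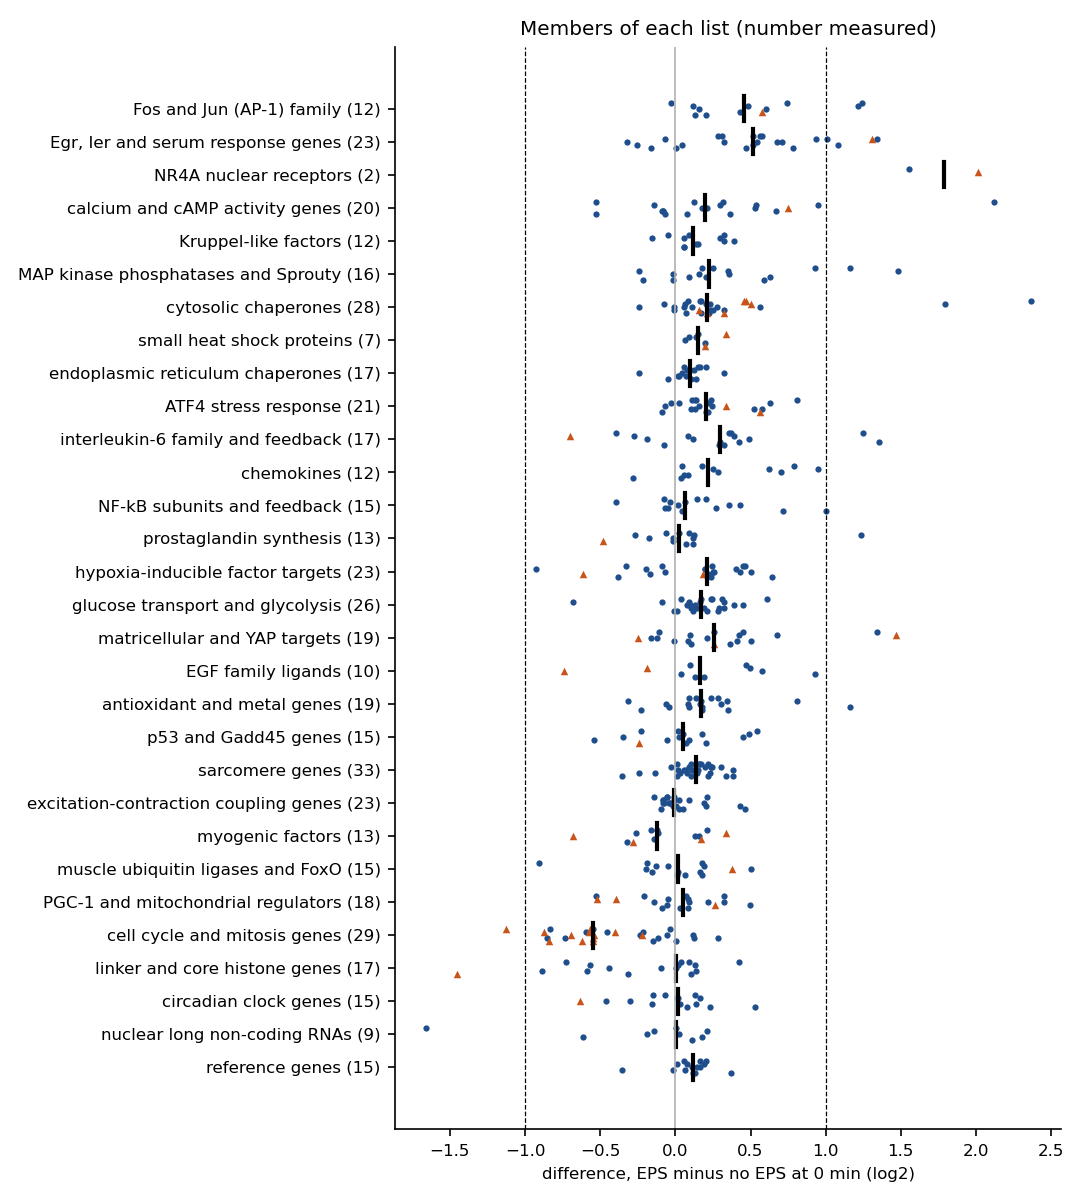
Difference of every measured member (points; triangles where marked) of 30 lists, with the number measured in brackets, the list median as a black bar and dashed lines at 2-fold. The cytosolic chaperones (Hspa1a, 2.36) and the calcium and cAMP activity genes (Arc, 2.12) reach furthest to the right, the cell cycle list lies mostly to the left of 0, and sarcomere and reference genes stay close to 0.

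Cell cycle and mitosis genes formed the list with the lowest median, -0.55, or -0.31 after normexp correction. Of 29 measured members 25 lay below 0, and 1 was at least 2-fold lower. Mki67, the Ki-67 antigen of dividing cells, was at -0.58 without EPS and -1.71 with EPS, 2.19-fold lower, with both probes in accord (-1.17 and -1.13; chromosome 7, 142881591 to 142881650, mm9). The mitotic topoisomerase Top2a was at -3.04 and -3.91, the kinase Plk1 at -1.09 and -1.93, and cyclin Ccna2 at -1.46 and -2.20. After normexp correction Mki67 differed by -1.02 and Plk1 by -0.66, but the dim Top2a by -0.42, against -0.87 before it. Replication genes differed less: Mcm6 by -0.23, Mcm2 by -0.15, Mcm3 by -0.03 and Pcna by 0.28.

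The unstimulated 0 min array stood apart in this list. It was marked for 13 of the 29 genes, all of them below 0, against 9.91% of all genes. Mki67 stood at -1.88 without EPS at 5 h and -1.78 with EPS at 5 h, next to the stimulated tissue at 0 min and not to its control. Without the 13 marked genes the list median was -0.18. The genes left included Bub1, which was dim at 5 h and could not be marked. Bub1 was at -4.81 on the control at 0 min, at -5.64 with EPS, and at -6.12 and -5.91 at 5 h. In bulk RNA, fewer dividing cells and less of each transcript per cell cannot be told apart.

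**Figure D5:**
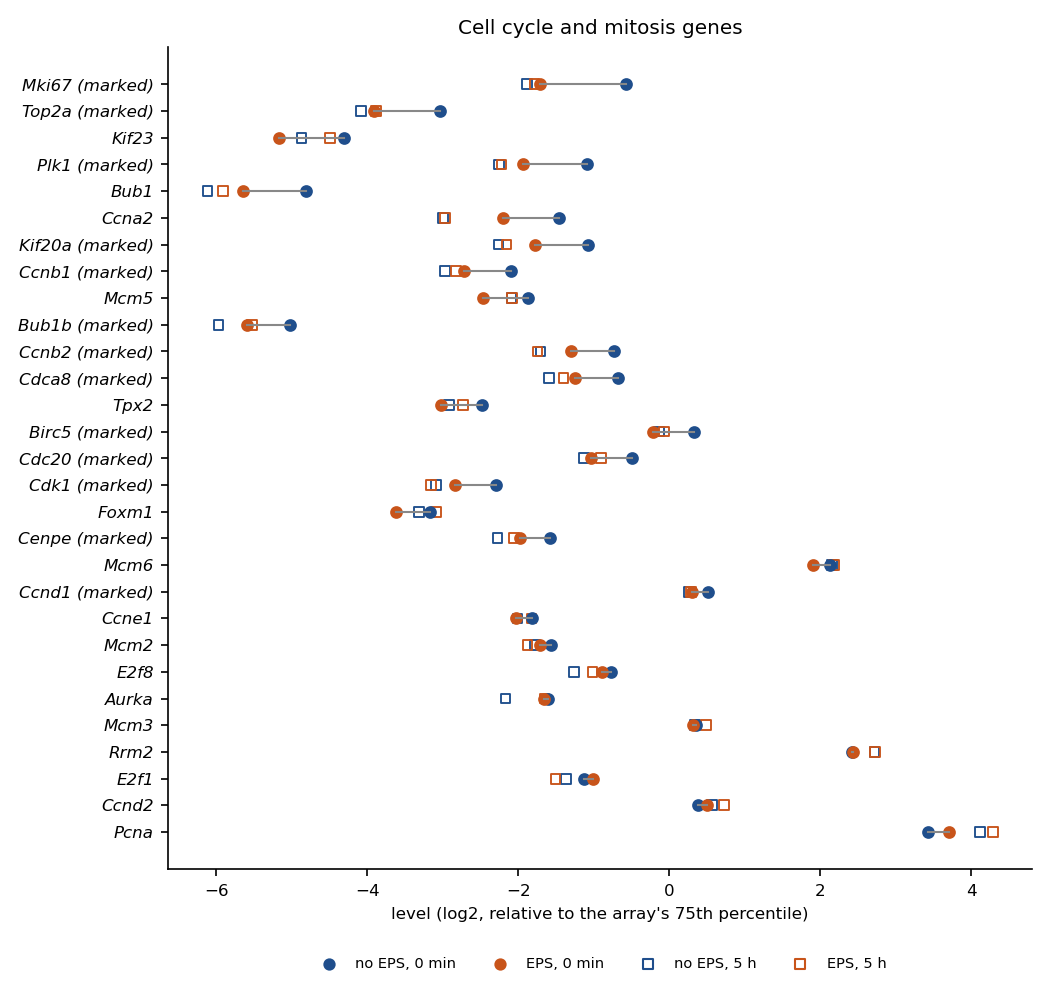
Levels (x axis, log2 relative to the 75th percentile of the array) of the 29 measured cell cycle genes, ordered by difference, with filled circles for the arrays at 0 min and open squares for those at 5 h. The control at 0 min lies to the right of all 3 other arrays for the marked genes, among them Mki67, Top2a and Plk1.

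The promoters of Mki67 and Top2a are shown for the CCAAT box (CCAAT) and the cell cycle homology region (TTTGAA). The box is a common promoter element, and the region is a motif of genes repressed outside division. The 2 promoters are at chr7:135716380-135716579 and chr11:99024190-99024389, both on the minus strand (GRCm38.p6, RefSeq), with matches on either strand in capitals.
Mki67: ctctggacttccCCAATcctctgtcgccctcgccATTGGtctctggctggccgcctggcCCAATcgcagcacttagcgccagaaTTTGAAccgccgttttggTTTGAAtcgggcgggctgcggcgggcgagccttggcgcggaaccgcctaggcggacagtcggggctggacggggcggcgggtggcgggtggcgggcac
Top2a: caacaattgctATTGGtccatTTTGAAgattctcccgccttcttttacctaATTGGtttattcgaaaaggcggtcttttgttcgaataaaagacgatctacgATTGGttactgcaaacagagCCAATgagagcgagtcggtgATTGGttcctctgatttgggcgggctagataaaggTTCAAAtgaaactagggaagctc
The CCAAT box was in 20 of 23 promoters (87%) of the measured cell cycle genes and in 37.4% of all promoters (37.5% of those of measured genes). The cell cycle homology region was in 12 of the 23 (52.2%) and in 17.9% of all (12.4% of those of measured genes). These are features of the class, whichever way its genes differed.

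Few genes with symbols were lower with EPS and unmarked. Malat1, a long non-coding RNA kept in the nucleus, was at 1.69 without EPS and 0.03 with EPS, 3.16-fold lower (chromosome 19, 5795713 to 5795772, mm9). The other nuclear RNAs differed by less: Neat1, its neighbour and the scaffold of paraspeckles, differed by -0.14, Xist by -0.62 and Kcnq1ot1 by -0.19, while H19 differed by 0.21. Igfbp2, which binds insulin-like growth factors, was at -0.44 and -1.91, 2.77-fold lower on both probes (-1.47 and -1.42). Eid3, a regulator of transcription, had signals of 460.7 and 136.2, 2.71-fold lower as levels, and Ppnr at 0.29 and -1.11, 2.64-fold lower. Of the 35 lower genes above the lower quartile of level, 12 carried a symbol. Of 436 measured genes that RefSeq classes as lncRNA, 15 were at least 2-fold lower (3.44%), against 46 of 13457 protein coding genes (0.342%). The lncRNAs were dim, with a median level of -3.63; of the 1858 genes in the level range from -4.65 to -3.59, 56 were at least 2-fold lower.

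At or above the lower quartile of level the 3 largest differences were marked ones. The largest was that of the gene model Gm15645, named after its value was seen, at -4.98 without EPS and 0.08 with EPS, with 0.70 and 1.25 at 5 h. Ggcx, the carboxylase that activates vitamin K-dependent proteins, was at -4.22 without EPS and -1.56 with EPS, 6.30-fold apart, and stood at -1.88 and -1.87 at 5 h. Ppp5c, a phosphatase bound to Hsp90, was at -2.93 and -0.28, with -0.24 and -0.23 at 5 h. Nelfe, a subunit of the factor that pauses RNA polymerase, was at -0.98 and 1.20, with 1.20 and 1.29 at 5 h. For Ggcx, Ppp5c and Nelfe the other arrays agreed closely and the control alone was low. Spots around them were not shifted: the neighbouring probes had median differences of 0.11, 0.02 and 0.03. Hdc, the enzyme of histamine synthesis, and the linker histone gene H1f5 were marked in the other direction, 2.95-fold and 2.74-fold lower. Of 17 histone genes 4 were at least 1.5-fold lower and 0 higher, against 3.35% and 2.02% of all measured genes. Their median of 0.01 changed sign under 5 of 9 other settings.

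For genes seen on 1 array alone only a lower bound of the fold exists, with the dim side set at the lowest level well above background on that array, or at the probe's own level where that was higher. The bound reached 2-fold for 195 of 833 genes seen only with EPS and for 219 of 580 seen only without it. Bounds were ranked among genes with a symbol only, and there Nefl, the neurofilament light chain of neurons, had the largest. Nefl had a signal of 489.5 without EPS and was not well above background with EPS, at least 26.6-fold lower. Its level was -1.48 without EPS at 0 min, against -4.49 and -4.79 at 5 h. The mark was not applied to genes dim on an array, but for Nefl and Fscb the control at 0 min lay above all 3 other arrays. The next with a symbol were Klra22 of natural killer cells with EPS and Fscb of sperm without it. They had bounds of 8.31 and 8.26 at signals of 135.5 and 152.2.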

How the data were processed

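Total RNA from an acid phenol extraction was copied with an oligo-dT T7 primer and labelled with Cy3, per the labels' protocols. The deposited values are spot intensities of Agilent Feature Extraction 10.7.3.1, background-subtracted and detrended, per the file headers. The deposited value table holds the same linear intensities (44397 of 44397 values per array within 0.1%; column medians 75.2 and 57.6 at 0 min without and with EPS).

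Control spots and outlier-flagged spots (112 to 141 per array) were left out; 0 spots were saturated. Spots of a probe were averaged as log2 values after scaling, and a gene took its brightest probe. Of 39429 probes 26161 were named by accession through a RefSeq table (GRCm38.p6). Probe positions are the array design's (mm9).

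Members and the 37 gene lists were chosen with earlier results of these data known. Named genes were the 20 unmarked and 8 marked with the largest differences per direction (2-fold, at or above the lower quartile, symbol, probes of 1 sign), list members at 2-fold and up to 4 more per list, 5 bounds per direction, Cck and its receptors, and repeated probes at 1.5-fold; a gene outside this rule is said to be so, and a few genes that it names are not reported here. Alternatives were normexp (limma 3.58.1, offset 50), quantile and median scaling, filters on dim probes, mean over probes, a 1.5-fold rule and a level trend. Python 3.11.15 and R 4.3.3 were used.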

Additional observations from a re-analysis of the deposited data

How the results depend on the processing

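Counts of genes 2-fold apart depended most on dim probes. The 104 higher and 147 lower genes became 42 and 29 with normexp background correction, all of them among the original calls. They became 508 and 534 where 1 of the 2 arrays had to be well above background, 1094 and 1188 with no filter, and 43 and 35 at or above the lower quartile of level. A 1.5-fold rule gave 376 and 622. Leaving marked genes out gave 86 and 87. Quantile normalization, median centring, a filter on all 4 arrays, the mean of probes and a level trend (chosen after the data were seen) kept the counts within 1.5 times.

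Marked genes among the higher numbered 18, or 10 with a gap of at least 1 in addition and 44 with no condition on the gap (chosen after the data were seen). Among the lower they numbered 60, or 99 with no condition. Of 43 named genes at 2-fold, 9 lay below it with normexp, 3 with the mean of probes, 2 with the level trend and 1 with quantile normalization, and 0 changed sign. No paired analysis was possible because each group had 1 array and the labels carry no replicate numbers. Leaving out an array was not possible for the same reason.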
